A study of Mus musculus with 6 samples.

Results

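CTCF peaks were examined around 8 genes that control entry into the cell cycle: Cdkn1a, Cdkn1b, Cdkn2a, Cdkn2b, Ccnd1, Ccnd2, Ccnd3 and Rb1. The members were all listed peaks whose midpoint fell in 1 of 7 set ranges of the mm9 genome, each 1 Mb long except the 0.9 Mb range of Ccnd1, and Cdkn2a and Cdkn2b shared a range. They numbered 204 of the 36923 peaks in 2 lists. The peaks come from CTCF ChIP-seq of satellite cells, which are muscle stem cells marked by Pax7, from C57BL/6 mice with the Pax7-nGFP reporter at postnatal day 38. One list describes quiescent satellite cells (QSC) and the other freshly isolated satellite cells (FISC). Strain, reporter and age were the same in both states, and the labels gave no drug or injury and no number of animals. Each state had 2 ChIP libraries and 1 input library but only 1 list, so no value below has a replicate error and no difference could be tested against one.

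CTCF recognises an extended DNA motif through its zinc fingers and halts cohesin there, and the loops anchored in this way limit which enhancers meet which promoters. The D-type cyclins encoded by Ccnd1, Ccnd2 and Ccnd3 activate CDK4 and CDK6, which phosphorylate the retinoblastoma protein, the product of Rb1, and so release E2F factors for DNA replication. The CDK inhibitors p21 (Cdkn1a), p27 (Cdkn1b), p16INK4a (Cdkn2a) and p15INK4b (Cdkn2b) hold this step back, and a further Cdkn2a product, p19ARF, stabilises p53. Satellite cells rest outside the cell cycle in uninjured muscle, and removing them from the tissue is known to start their activation.

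The lists gave each peak as an interval with no height, score or p-value, so a peak is described here by its position and width. Peaks of the 2 lists that had 1 bp or more in common count as shared, and the remaining ones as QSC-only or FISC-only. A missing call does not show that CTCF was absent. Positions count from 1 in mm9, and distances are from the centre of the range, minus being the side of lower coordinates. The lists hold no gene names and no mm9 annotation was used, so no peak was assigned to a promoter, exon or intron. The place of a gene within its range was not used either, so a peak near a centre need not lie near the gene. Without an mm9 genome the sequences under the peaks were not analysed here.

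The ranges held 91 QSC peaks and 113 FISC peaks, which formed 56 shared sites, 35 QSC-only peaks and 57 FISC-only peaks. QSC-only peaks thus made up 38.5% of the QSC members, against 62.2% of the whole QSC list. FISC-only peaks made up 50.4% of the FISC members, against 58.2% of the whole FISC list. The shared part was 61.5% of the QSC members (95% Wilson interval 51.3 to 70.9) and 49.6% of the FISC members (40.5 to 58.6). In the whole lists it was 37.8% and 41.8%. The interval for QSC lay above its whole-list value and the interval for FISC included it. These intervals cover counting error only, and neighbouring peaks are not independent.

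**Figure D1:**
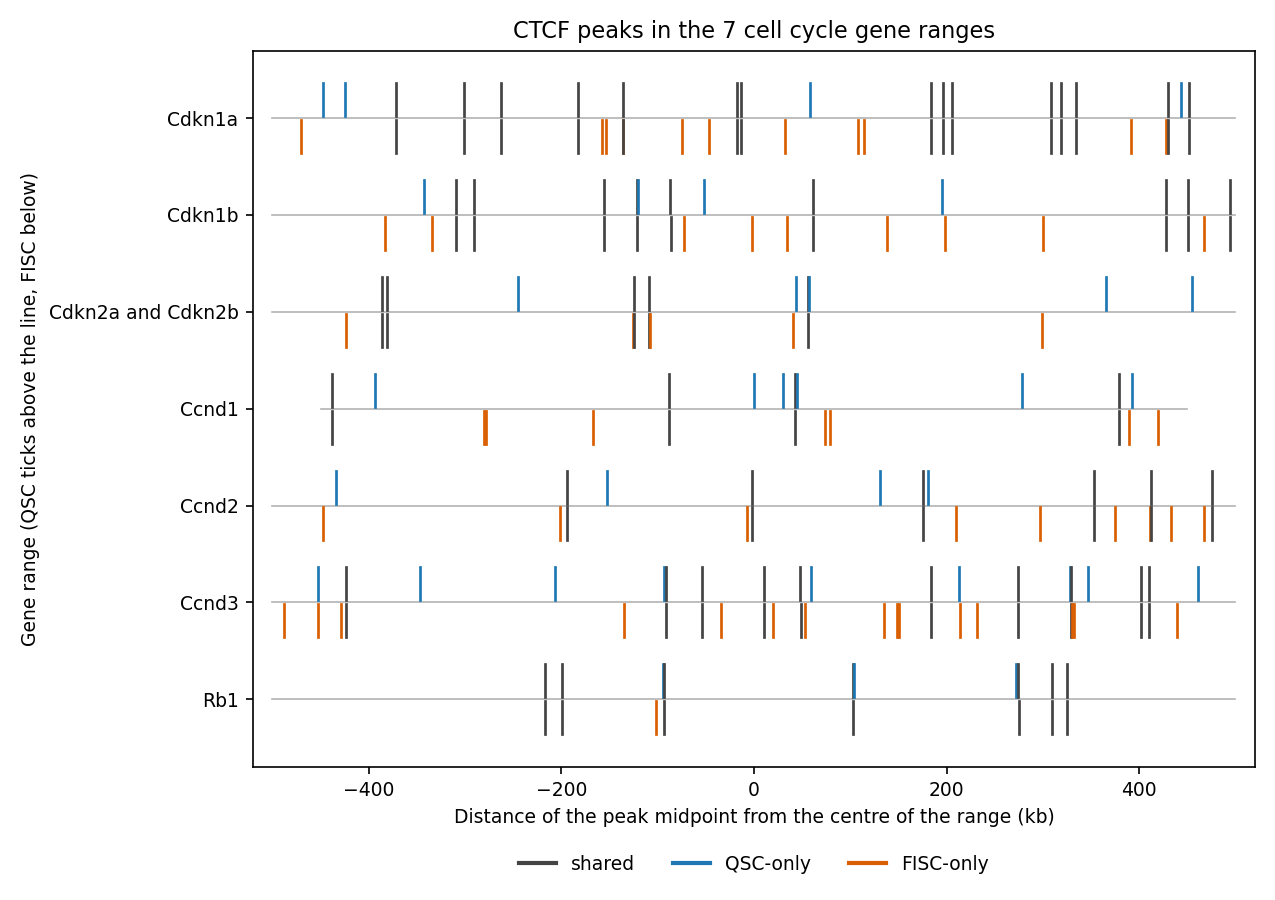
Each tick is 1 listed CTCF peak, placed by the distance of its midpoint from the centre of its range in kb, with QSC peaks above and FISC peaks below each line. Black ticks are shared, blue ticks QSC-only and orange ticks FISC-only. The Rb1 line carries a single orange tick and the Cdkn1a line 11.

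The ranges were richer in peaks than most of the genome, and sharing was also higher in other rich regions. The 2649 tiles of 1 Mb along the chromosomes held a median of 6 QSC and 4 FISC peaks. The gene ranges held 18 to 45 peaks of both lists together. In the 693 tiles with 18 to 45 peaks, the shared part was 50.6% in QSC and 44.7% in FISC. The value of these tiles fell just below the interval of the QSC members and within that of the FISC members. In the 762 tiles with 18 peaks or more, the shared part was 52.9% in QSC and 46.1% in FISC. Both values lay within the intervals of the members, so the result for QSC depends on the tiles chosen. There were 1.24 FISC peaks per QSC peak in the ranges, 1.13 in the 693 tiles of like density and 0.903 in the whole lists.

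**Figure D2:**
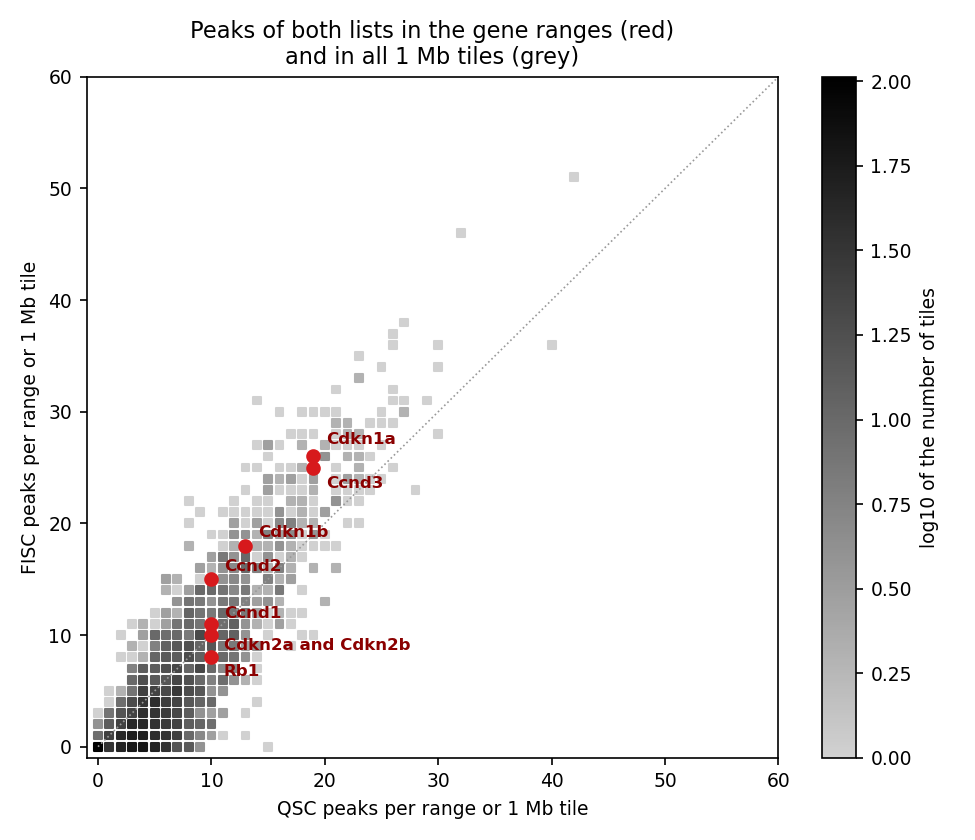
Red points give the numbers of QSC peaks (horizontal axis) and FISC peaks (vertical axis) in each gene range, and grey squares those in all 1 Mb tiles, darker where more tiles have that pair of numbers. Cdkn1a and Ccnd3 lie at 19 QSC and 26 or 25 FISC peaks, and Rb1 is the 1 range below the dotted line of equal numbers.

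Among the CDK inhibitor genes, the range of Cdkn1a was the richest. It ran from 28.7 to 29.7 Mb of chromosome 17 and held 19 QSC and 26 FISC peaks, more than 96.0% and 97.5% of the tiles. It had 15 shared sites, 4 QSC-only peaks and 11 FISC-only peaks. Of its QSC peaks 78.9% were shared (95% Wilson interval 56.7 to 91.5), the largest QSC share of the 7 ranges, and of its FISC peaks 57.7% (38.9 to 74.5). Of the 19 QSC peaks around the p21 gene, 15 thus overlapped a call of the FISC list. For comparison, 37.8% of the whole QSC list and 50.6% of the QSC peaks in the 693 tiles of like density were shared. An overlap of 2 lists does not show that binding was kept through isolation.

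The peaks nearest to the centre of the Cdkn1a range were a pair of shared sites. The nearer lay at -13.8 kb, chr17:29185965-29186370 in QSC (406 bp) and chr17:29186186-29186616 in FISC (431 bp). The other lay at -17.9 kb, chr17:29181945-29182218 in QSC (274 bp) and chr17:29181810-29182191 in FISC (382 bp). From there no shared site was listed for 197 kb, up to the site at 183.8 kb. Within that stretch lay 3 FISC-only peaks, at 32.6, 108.2 and 114.1 kb, and 1 QSC-only peak at 57.8 kb. The FISC-only peak at 32.6 kb, chr17:29232357-29232762, was 406 bp wide, wider than the median FISC peak of 372 bp, and had no QSC peak within 24.9 kb. The inner 500 kb of this range held 8 FISC-only peaks and 1 QSC-only peak, and the outer part 3 of each.

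Single sites around Cdkn1a were among the wider ones of their lists. The widest FISC interval of the range, chr17:29063930-29064674 at -135.7 kb, was 745 bp wide, and 1.18% of FISC peaks were as wide or wider. Its QSC partner, chr17:29064121-29064512, was 392 bp wide and lay inside it. A separate FISC-only interval, chr17:29063412-29063752, ended 0.177 kb before it. The widest QSC interval of the range, 543 bp at chr17:28827885-28828427, met a FISC interval of 485 bp. The 4 QSC-only peaks were all narrow, from 266 to 285 bp, below the QSC median of 310 bp.

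The range of Cdkn1b, from 134.4 to 135.4 Mb of chromosome 6, held 13 QSC and 18 FISC peaks with 9 shared sites. The shared part was 69.2% in QSC (42.4 to 87.3) and 50% in FISC (29.0 to 71.0), with 4 QSC-only and 9 FISC-only peaks. The peaks nearest to the centre of the range were FISC-only. One lay at -2.4 kb, chr6:134897426-134897700 (275 bp), and the next at 33.8 kb, chr6:134933541-134934036, which was 496 bp wide and the widest FISC-only peak of the range. The nearest shared site lay at 61.6 kb, where the QSC interval chr6:134961496-134961769 was 274 bp wide and the FISC interval chr6:134961300-134961786 was 487 bp wide. Beyond it, 366 kb passed without a shared site, with 3 FISC-only peaks and 1 QSC-only peak in between.

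Of the 13 QSC peaks around Cdkn1b, the widest was QSC-only. It was chr6:134557323-134557836, at -342.4 kb, with a width of 514 bp that 6.51% of QSC peaks reached. The nearest FISC peak, itself FISC-only, lay 7.49 kb away at chr6:134565330-134565688. Another QSC-only peak, chr6:134778906-134779273, lay 203 bp beyond a FISC interval that was shared with a different QSC peak. At that site QSC had 2 intervals, at -121.6 and -120.9 kb, and FISC had 1.

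The range of Cdkn2a and Cdkn2b, from 88.4 to 89.4 Mb of chromosome 4, was evenly divided, with 10 peaks in each list. It had 5 shared sites, 5 QSC-only and 5 FISC-only peaks, so 50% of either list was shared (95% Wilson interval 23.7 to 76.3). In the GRCm38 gene order of RefSeq these genes adjoin each other, with Mtap, Ifne and Ifna1 on the side of lower coordinates and Dmrta1, Zfp352 and Elavl2 on the other. The 4 peaks nearest to the centre lay between 40.7 and 56.6 kb and were of all 3 classes. The FISC-only peak chr4:88940485-88940989 was 505 bp wide. It was the widest of the 5 FISC-only peaks of the range, and 11.5% of FISC peaks were as wide or wider. The QSC-only peak chr4:88943399-88943684, 286 bp wide, lay 2.41 kb further on. The shared site followed, chr4:88956258-88956708 in QSC (451 bp) and chr4:88956350-88956803 in FISC (454 bp), and a QSC-only peak of 377 bp, chr4:88957035-88957411, began 231 bp after that FISC interval.

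Beyond this group the range held no further shared site. Over the 443 kb up to its end, 3 QSC-only peaks (that of 377 bp included) and 1 FISC-only peak were listed. The QSC-only peak chr4:89354576-89354843 had the nearest FISC peak 155 kb away, the longest such distance among the members. On the other side of the centre the shared site at -124.7 kb was 266 bp wide in QSC and 582 bp in FISC (chr4:88775185-88775766). At -381.0 kb the widths were reversed, 453 bp in QSC (chr4:88518745-88519197) and 245 bp in FISC (chr4:88518688-88518932), the narrowest width found in the lists. These were the largest and the smallest FISC to QSC width ratios of all shared members, 1.13 and -0.89 on the log2 scale.

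The 3 D-type cyclin ranges held 39 QSC and 51 FISC peaks together, against 42 and 54 in the 3 CDK inhibitor ranges. The shared part of QSC peaks was 51.3% (36.2 to 66.1) in the cyclin ranges and 69.0% (54.0 to 80.9) in the inhibitor ranges. For FISC peaks it was 39.2% (27.0 to 52.9) and 53.7% (40.6 to 66.3). Both lists had the lower value in the cyclin ranges, but the intervals overlapped and the difference was not tested. In QSC it did not hold range by range. The part around Cdkn2a and Cdkn2b (50%) was below those around Ccnd2 (60%) and Ccnd3 (52.6%). In FISC each cyclin range was below each inhibitor range.

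The Ccnd1 range, from 151.6 to 152.5 Mb of chromosome 7, had the lowest shared part of the 7 in both lists. It held 10 QSC and 11 FISC peaks with 4 shared sites, so 40% of QSC peaks (16.8 to 68.7) and 36.4% of FISC peaks (15.2 to 64.6) were shared. State-only calls of either list lay on both sides of its centre. Close to it on the high side were QSC-only peaks at 0.5 kb, chr7:152050409-152050657 (249 bp), at 30.1 kb and at 44.3 kb. FISC-only peaks lay at 73.5 kb, chr7:152123275-152123728 (454 bp), and at 79.4 kb, chr7:152129259-152129517 (259 bp). Among them, at 43.0 kb, stood the shared site chr7:152092716-152093353 in QSC, which was 638 bp wide. It was the widest QSC peak of the range, and 2.09% of the QSC list were as wide or wider. The FISC interval inside it, chr7:152092910-152093270, was 361 bp.

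The state-only peaks of the Ccnd1 range differed in width between the states, in the same direction as in the whole lists. There the medians were 291 bp for QSC-only and 344 bp for FISC-only peaks. Around Ccnd1 the 6 QSC-only peaks measured 249 to 299 bp, all under the QSC median of 310 bp. The 7 FISC-only peaks measured 259 to 650 bp with a median of 454 bp, above the median of 410 bp of the 4 shared FISC peaks. The widest, chr7:151882715-151883364 at -167.0 kb, was wider than 97.5% of FISC peaks and its nearest QSC peak was 78.7 kb away. A pair of FISC-only peaks at -280.3 and -278.2 kb, chr7:151769579-151769890 and chr7:151771519-151771998, lay 113 and 115 kb from the nearest QSC peak.

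The Ccnd2 range, from 126.6 to 127.6 Mb of chromosome 6, held 10 QSC and 15 FISC peaks with 6 shared sites, 4 QSC-only and 9 FISC-only peaks. The shared part was 60% in QSC (31.3 to 83.2) and 40% in FISC (19.8 to 64.3). A shared site lay almost at its centre, at -2.0 kb. It was 420 bp wide in QSC (chr6:127097756-127098175) and 403 bp in FISC (chr6:127097681-127098083). A FISC-only peak of 409 bp, chr6:127092076-127092484, lay 5.27 kb before the QSC interval. The next peak on the far side was QSC-only, at 131.1 kb. The widest QSC-only peak, 442 bp at chr6:127280214-127280655, lay 4.83 kb after the FISC interval of a shared site. That shared site was itself wider in QSC, 432 bp (chr6:127275014-127275445) against 249 bp (chr6:127275136-127275384). Both states left long stretches empty at the low end of this range, where 233 kb held no peak of either list.

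The Ccnd3 range, from 47.1 to 48.1 Mb of chromosome 17, was as rich as that of Cdkn1a, with 19 QSC and 25 FISC peaks. It had fewer shared sites, 10, and the largest number of state-only peaks of the 7 ranges, 9 QSC-only and 15 FISC-only. These were 47.4% of its QSC and 60% of its FISC peaks, against 62.2% and 58.2% of the whole lists. Around Ccnd1 the state-only parts were larger, 60% and 63.6%. The shared part was 52.6% in QSC (31.7 to 72.7) and 40% in FISC (23.4 to 59.3). The shared site nearest to the centre lay at 10.7 kb, chr17:47610569-47610900 in QSC (332 bp) and chr17:47610514-47610949 in FISC (436 bp). The FISC-only peak chr17:47619338-47619710 followed at 19.5 kb. Between the shared sites at 48.4 and 183.8 kb stood 4 FISC-only peaks and 1 QSC-only peak, among them chr17:47734953-47735525 (573 bp) and chr17:47747996-47748578 (583 bp). The latter was the widest of the 25 FISC peaks of the range, and 5.06% of the FISC list were as wide or wider. Its nearest QSC peak was 35.2 kb away.

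Several state-only calls around Ccnd3 lay side by side. The QSC-only peak chr17:47147054-47147323 and the FISC-only peak chr17:47147479-47147787 were 155 bp apart. The QSC-only peak chr17:47813112-47813409 and the FISC-only peak chr17:47813463-47813870 were 53 bp apart, the shortest gap among the members. The largest group of peaks in any range lay here too, 4 sites within 4.57 kb from 328.2 to 332.8 kb. It ran from a QSC-only peak over the shared site chr17:47929457-47929921 (465 bp in QSC, 466 bp in FISC) to 2 FISC-only peaks.

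The Rb1 range, from 73.1 to 74.1 Mb of chromosome 14, held 10 QSC and 8 FISC peaks and was the 1 range with more QSC than FISC peaks. It had 7 shared sites. The shared part was 70% in QSC (39.7 to 89.2) and 87.5% in FISC (52.9 to 97.8), the largest FISC share of the 7 ranges. The 1 FISC-only peak, chr14:73498311-73498931 at -101.4 kb, was also the widest FISC peak of the range, 621 bp, and 3.34% of FISC peaks reached that width. The 3 QSC-only peaks measured 262 to 295 bp. Each lay beside a shared site: the gaps to the nearest FISC peak were 0.447, 0.778 and 1.74 kb. The first 283 kb held no peak of either list, and no peak lay between the shared sites at -93.6 and 103.3 kb. With 18 peaks in all, each share rests on few calls.

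**Figure D3:**
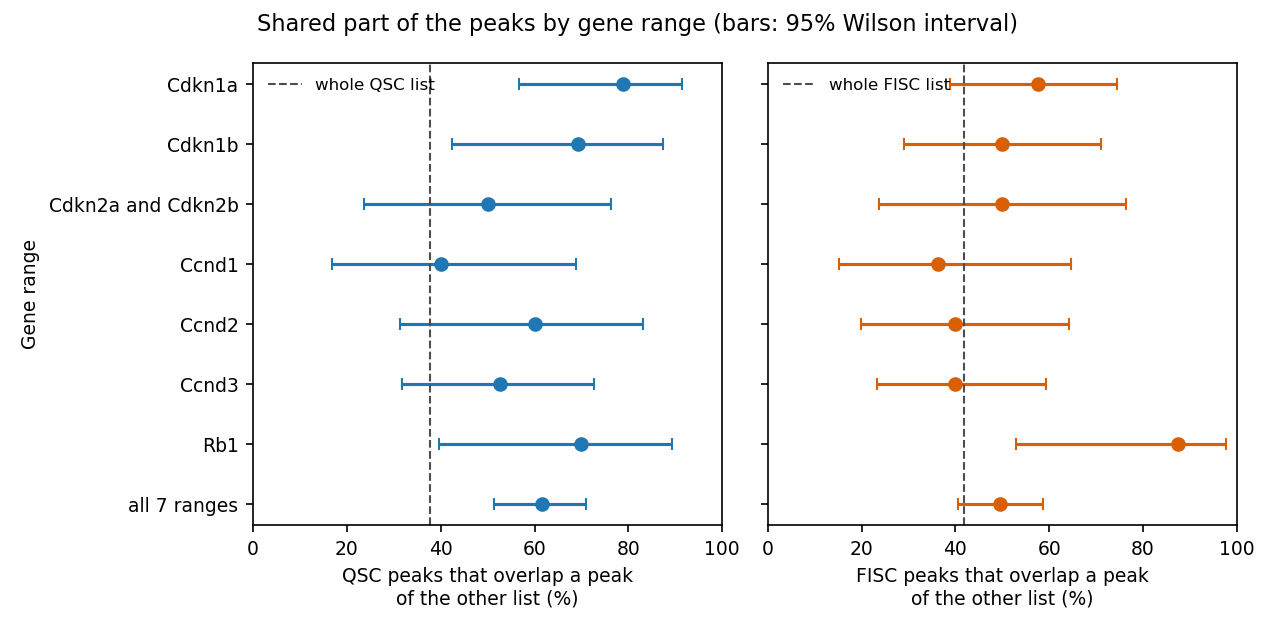
Points give the percentage of QSC peaks (left) and FISC peaks (right) in each gene range that overlap a peak of the other list, with 95% Wilson intervals as bars, and dashed lines the whole lists. All 7 QSC points lie to the right of the QSC line at 37.8%, and 4 of 7 FISC points to the right of the FISC line at 41.8%.

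Across the ranges, the part of QSC peaks with a partner was lowest around Ccnd1 (40%), highest around Cdkn1a (78.9%) and above that of the whole list in 7 of 7 ranges. For FISC peaks it was lowest around Ccnd1 (36.4%), highest around Rb1 (87.5%) and above that of the whole list in 4 of 7. In the 693 tiles of like density these parts were 50.6% and 44.7%. The QSC values around Ccnd1 and around Cdkn2a and Cdkn2b (50%) were below that of the tiles, and those of the other ranges above it. For FISC the same 4 ranges were above the tiles, and the D-type cyclin ranges were below. FISC peaks outnumbered QSC peaks in 5 ranges, equalled them around Cdkn2a and Cdkn2b and were fewer around Rb1. On the log2 scale the ratio of FISC to QSC peaks ran from -0.32 around Rb1 to 0.58 around Ccnd2, with 0.31 over all ranges (95% Wilson interval -0.08 to 0.71) and -0.15 in the whole lists. The Wilson interval included 0 in each of the 7 ranges. It treats peaks as independent and counts each shared site in both lists. It therefore cannot decide whether the lists differed in number within a range. The intervals of all 7 ranges overlapped one another. Calls were found in the inner and the outer parts of the ranges. The inner 50% of their length held 28 shared sites, 19 QSC-only and 32 FISC-only peaks, and the outer 50% held 28, 16 and 25. Single ranges differed, with 8 inner and 3 outer FISC-only peaks around Cdkn1a but 3 and 6 around Ccnd2. Parts of this size cannot show whether calls gathered close to a centre.

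The shared sites were close matches. The 56 pairs of intervals had midpoints a median of 49 bp apart, from 3 to 233.5 bp, against a median of 54.5 bp over the whole lists. At 42 of the 56 sites (75%) the midpoints were within 100 bp, as at 75.4% of all shared sites. The FISC interval was the wider at 43 sites and the QSC interval at 13, so FISC was wider at 76.8% of the members and at 63.7% of all shared sites. The median log2 ratio of FISC to QSC width was 0.20 for the members and 0.17 for all shared sites. By range, that median was highest around Ccnd3, at 0.41, where FISC was wider at 9 of 10 sites. It was lowest around Cdkn1a, at 0.09, with FISC wider at 10 of 15. Around Cdkn1b FISC was wider at 8 of 9 sites.

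**Figure D4:**
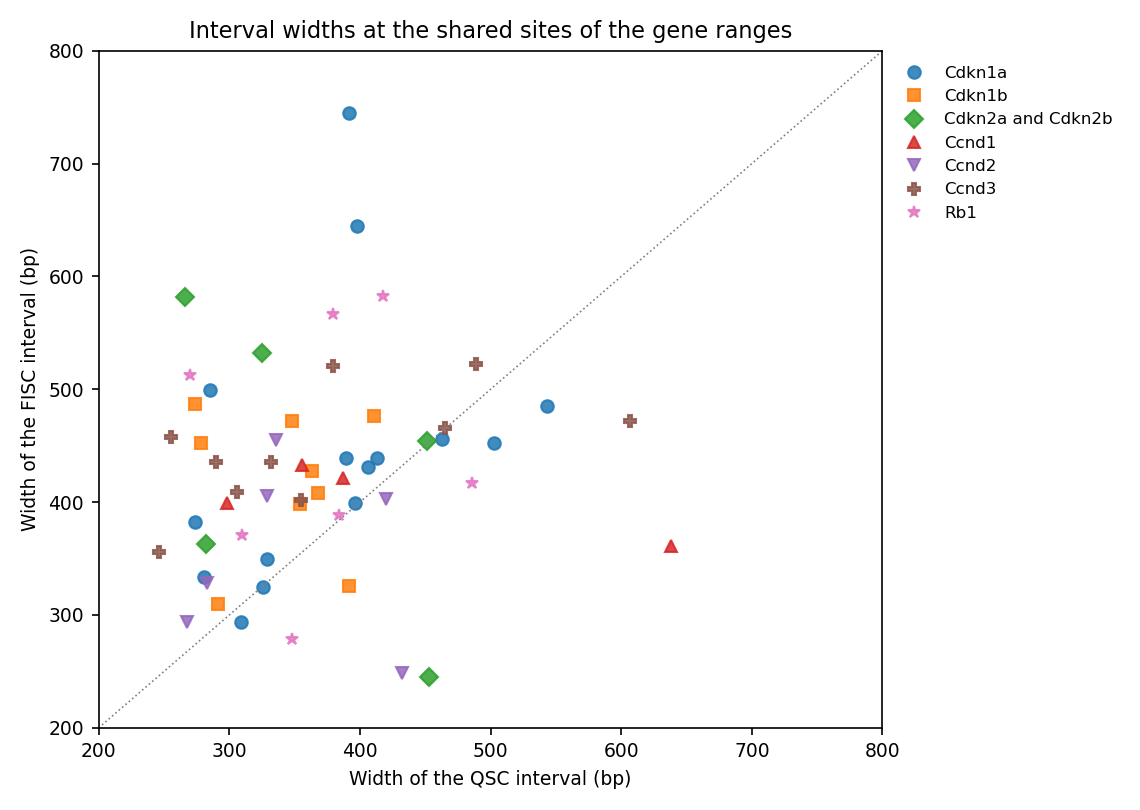
Each of the 56 points is 1 shared site, with the width of its QSC interval on the horizontal axis and of its FISC interval on the vertical axis, both in bp, and the symbol giving the gene range. Points above the dotted line of equal widths, 43 of 56, are wider in FISC. The Cdkn1a site at 392 and 745 bp lies highest, and the Ccnd1 site at 638 and 361 bp lies farthest to the right.

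Over all ranges together, shared members had a larger median width than state-only members, as in the whole lists. In QSC the median width was 355.5 bp for the 56 shared and 286 bp for the 35 QSC-only members, against 359 and 291 bp in the whole list. In FISC it was 429.5 bp for the 56 shared and 359 bp for the 57 FISC-only members, against 412 and 344 bp. Single ranges went the other way. In QSC the shared and QSC-only medians were 354 and 391 bp around Cdkn1b and 332.5 and 375.5 bp around Ccnd2. In FISC the FISC-only peaks were the wider around Ccnd1, as given above, and around Rb1, where the 1 FISC-only peak of 621 bp stood against a shared median of 417 bp. Sharing was also compared within width classes. Of the 49 QSC members wider than 310 bp, 77.6% were shared (95% Wilson interval 64.1 to 87.0), against 53% of such peaks in the whole list. Of the 42 narrower ones, 42.9% were shared (29.1 to 57.8), against 22.7%. For FISC these values were 60.3% (48.4 to 71.1) of 68 members wider than 372 bp against 55.8%, and 33.3% (21.4 to 47.9) of 45 others against 27.8%. Both states had values above those of the list in both width classes. The QSC intervals lay above the list values, and the FISC intervals included theirs. Density of peaks was not held equal in this comparison.

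Over all ranges together, state-only peaks around the cell cycle genes had smaller median distances to the other list than state-only peaks at large. The 35 QSC-only members lay a median of 12.7 kb from the nearest FISC peak, against 60.6 kb for all QSC-only peaks. The 57 FISC-only members lay a median of 21.8 kb from the nearest QSC peak, against 27.0 kb for all FISC-only peaks. By range, the median was above that of the whole list for the QSC-only peaks around Cdkn2a and Cdkn2b (66.0 kb) and for the FISC-only peaks around Ccnd1 (34.8 kb) and Cdkn1b (27.5 kb). Within 10 kb of the other list lay 17 of the 35 QSC-only members (48.6%, against 16.8% of all QSC-only peaks) and 20 of the 57 FISC-only members (35.1%, against 26.8%). Gaps of 500 bp or less were found for 5 members of either class, 14.3% and 8.77%, against 2.19% and 2.63% over the whole lists. More than 100 kb from the other list lay 3 members of either class, 8.57% and 5.26%, against 39.2% and 14.8%. The ranges are rich in peaks of both lists, which by itself shortens such distances, and the part of density in these values was not tested.

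**Figure D5:**
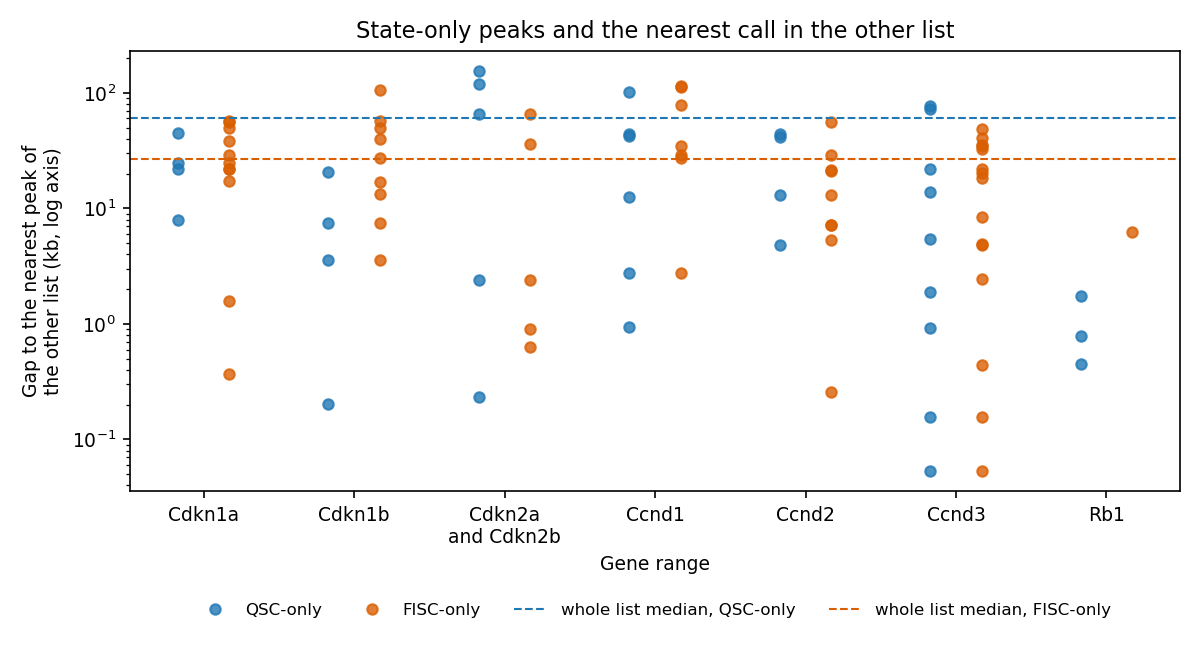
Each point is 1 QSC-only peak (blue) or FISC-only peak (orange), with its gap in kb to the nearest peak of the other list on a log axis, by gene range. Dashed lines mark the medians over the whole lists, 60.6 kb for QSC-only and 27.0 kb for FISC-only peaks. All 4 Rb1 points lie at 6.23 kb or less, while the Cdkn1b, the Ccnd1 and the Cdkn2a and Cdkn2b columns hold points above 100 kb.

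Few peaks lay close to an end of a range, where stretches of 10 kb make up only a small part of the length. Within 10 kb of an end lay 2 members inside, the intervals of a shared site around Cdkn1b, and 3 peaks outside. The nearest member was 5.20 kb inside an end and the nearest other peak 6.96 kb outside one.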

How the data were processed

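Per the labels, CTCF ChIP-seq was made from 2 QSC and 2 FISC libraries with 1 input library each. The authors deposited 1 interval list per state, QSC with 19403 and FISC with 17520 peaks, with no other unit than interval start and end in bp. Per the submitters' processing notes the build is mm9 and the tools are Bowtie2 2.2.3, Picard, MACS2 and HOMER. The calling threshold and the way libraries and inputs were combined are not stated. Read depth is unknown.

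Overlaps, widths and gaps came from scripts in Python 3.11.15 (numpy 2.4.6, scipy 1.17.1). Shared counts matched those of bedtools 2.31.1, and the counting was tested on simulated data. Tiles of 1 Mb began at the start of 20 chromosomes, and those crossing the gene ranges were kept. Gene order came from RefSeq, GRCm38.p6, by name only. Single peaks were named by rule where they were among the 3 nearest to a range's centre and shared, the nearest of their list, or the widest shared or state-only peak of a range. The other peaks named were picked after their values were seen, and so were the tiles of like density, the width classes and the inner and outer parts. The ranges and genes were chosen with earlier results of these data known. Alternatives changed the overlap, the lists, the range size and the tiles.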

Additional observations from a re-analysis of the deposited data

How the results depend on the processing

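Of 58 recomputed values, 51 counted as unchanged. They did not take the opposite sign and stayed within the 95% Wilson interval of the reported value. For counts the limit was 1.5 times. Among them were log2 ratios that fell to 0, around Cdkn1b in the wider 50% of each list and around Ccnd1 and Ccnd2 in the inner 500 kb. The ratio around Cdkn2a and Cdkn2b went from 0 to -0.07 in the 2 Mb around the centre. A ratio of 0 could not count as a change of sign. The intervals of single ranges were wide, such as -1.62 to 0.98 around Rb1, so an unchanged ratio there says little. With midpoints within 100 bp as the definition, 46.2% of QSC members and 37.2% of FISC members were shared, against 28.5% and 31.5% of the whole lists. This definition is stricter than an overlap. In the wider 50% of each list the ranges held 49 QSC and 68 FISC peaks, fewer by construction. There the log2 ratio of FISC to QSC peaks was 1.42 around Ccnd1 (3 QSC and 8 FISC peaks), and it changed sign around Ccnd2, to -0.49, and around Rb1, to 0.26. The cause of these changes of ratio was not tested. No stricter threshold could be set without scores. No paired analysis was possible because the lists give no values by library, which also left no replicate to leave out. Read depth is unknown, which limits what an absent call shows.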
